A study of Mus musculus with 6 samples.

Results

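RNA sequencing was used to follow 10 genes that encode feedback inhibitors of MAP kinase signalling in NCTC 1469 cells, namely the phosphatase genes Dusp1, Dusp2, Dusp4, Dusp5, Dusp6, Dusp7 and Dusp16, the Sprouty genes Spry1 and Spry2, and Spred1. They were chosen by gene symbol among the 53800 genes of the deposited count table, and all 10 had enough counts to be among the 14509 genes tested. NCTC 1469 is a mouse liver line that carries the labels hepatocytes and wild type. It was cultured for 6 days either on a random positioning machine, which turns a culture so that gravity has no constant direction (simulated microgravity, 3 libraries), or at normal gravity (3 libraries). Both groups grew in DMEM with 10% serum, and no sample carries a melatonin label although the title of the series names it. The comparison asks which of the 10 genes had another level under simulated microgravity than under normal gravity. In the table the columns carry the letters R and C. R was taken to stand for the random positioning machine and C for control, which the labels do not state and on which all directions depend. Nothing in the labels says that replicates were separate cultures, so the p-values reflect sample-to-sample spread that could be technical.

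MAP kinases (ERK, JNK and p38) are switched on by phosphorylation of a threonine and a tyrosine. The MAP kinase phosphatases encoded by Dusp genes remove both phosphates. Sprouty and Spred proteins act further upstream, where growth factor receptors pass their signal to RAS and RAF. Many of these genes are themselves transcribed when the kinases are active, which makes them negative feedback, and in macrophages Dusp1 is known for restraining p38 and JNK and with them the output of inflammatory cytokines.

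The libraries held 30474792 to 34318208 counts in simulated microgravity and 31406875 to 32797684 at normal gravity. Normal gravity replicate 1 stood apart. Across the tested genes its log2 CPM (CPM is a count relative to the size of its library, scaled here by TMM) correlated with the other normal gravity libraries at 0.936 each. The r was 0.985 between replicates 2 and 3 and 0.983 to 0.984 among the libraries from simulated microgravity. In that replicate genes of up to 1000 bases deviated from the mean of the other normal gravity libraries by a median of 0.63 log2 units, those of 2000 to 3000 bases by 0.22 and those over 5000 bases by -0.70. Of 10 hepatocyte markers 7, among them Alb and Hnf4a, had 0 counts in all 6 libraries, and only Trf exceeded 1 CPM. All 10 macrophage markers had at least 10 CPM in every library. They summed to 9939 to 11409 CPM in simulated microgravity, against 9796 CPM in normal gravity replicate 1 and 5775 and 5958 CPM in replicates 2 and 3. The data therefore go against the label hepatocytes. In bulk RNA, a changed number of cells of a kind and a changed level per cell cannot be told apart.

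The starts of 3 of the genes are shown because these are the genes whose level was higher in simulated microgravity once normal gravity replicate 1 was left out. Each line gives the strand of the gene from 250 bases before to 50 bases after its RefSeq start (GRCm38.p6). RefSeq windows were found for 9 of the 10 genes. Capitals mark matches, on either strand, to a cAMP response element (TGACGTCA), its core (TGACGT, which is part of the full element), an E-box (CACGTG), an AP-1 site (TGANTCA) or a CArG box, the site of serum response factor.
Dusp1, chr17:26508423-26508722, minus strand: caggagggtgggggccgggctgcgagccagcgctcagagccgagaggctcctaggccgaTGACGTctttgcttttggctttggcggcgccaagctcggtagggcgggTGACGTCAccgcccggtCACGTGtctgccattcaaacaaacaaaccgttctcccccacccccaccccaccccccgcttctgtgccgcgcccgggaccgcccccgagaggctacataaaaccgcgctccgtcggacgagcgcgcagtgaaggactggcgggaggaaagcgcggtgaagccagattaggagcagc
Dusp5, chr19:53528895-53529194, plus strand: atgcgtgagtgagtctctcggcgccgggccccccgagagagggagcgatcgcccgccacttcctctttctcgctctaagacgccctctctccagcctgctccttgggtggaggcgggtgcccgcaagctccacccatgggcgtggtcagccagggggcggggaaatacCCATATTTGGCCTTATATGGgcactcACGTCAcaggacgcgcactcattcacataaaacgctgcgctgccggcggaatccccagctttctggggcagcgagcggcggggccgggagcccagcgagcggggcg
Dusp6, chr10:99262981-99263280, plus strand: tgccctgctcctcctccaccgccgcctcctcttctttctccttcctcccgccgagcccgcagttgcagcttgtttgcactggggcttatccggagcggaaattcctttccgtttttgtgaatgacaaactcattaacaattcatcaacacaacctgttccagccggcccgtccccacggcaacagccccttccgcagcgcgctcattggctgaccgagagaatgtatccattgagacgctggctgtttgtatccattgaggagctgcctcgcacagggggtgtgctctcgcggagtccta
The Dusp1 window held a full cAMP response element that begins 143 bases upstream of the start, a second core 191 bases upstream and an E-box 126 bases upstream. Full elements occurred in 1.79% of 32851 promoter windows of the same length, the core in 7.51% and the E-box in 7.15%. The Dusp5 window held 2 adjacent CArG boxes, 82 and 72 bases upstream, a motif found in 1.63% of all windows, and a core 56 bases upstream. The Dusp6 window held none of these motifs. Among the other members with a window, Dusp2 had an E-box 109 bases upstream and Dusp7, Dusp16, Spry1, Spry2 and Spred1 had no match. AP-1 sites occurred in 7.81% of all windows and in none of the 9. The motifs were chosen after the sequences had been seen, and a match is a description of the letters only.

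With all 6 libraries, none of the 10 genes passed edgeR's quasi-likelihood test at an adjusted p of 0.05. The background was 1.52% of all tested genes (221 of 14509; 1.16% higher and 0.365% lower). DESeq2, which called 8.48% of all genes, limma-voom, and edgeR with the gene length trend removed, which called 4.8%, also called 0 members. At an unadjusted p under 0.05, 1 member (Dusp6) was higher and none was lower, against 16% of tested genes in either direction and 8.55% higher. That count was 3 higher and 1 lower in DESeq2, 2 higher in limma-voom, and 2 higher and 2 lower in edgeR with the length trend removed. For these fits the share of all tested genes at an unadjusted p under 0.05 was not computed. Their counts therefore cannot be read as an excess among the members. Fold changes leaned upward, with 8 members above 0 and 2 below, while 6918 of the 14509 tested genes were above 0 and 7591 below. The median log2 fold change was 0.34 for the members, against -0.02 for all tested genes. The members' split was 7 and 3 with scaling by library size alone. It was also 7 and 3 without normal gravity replicate 2, without normal gravity replicate 3, and without simulated microgravity replicate 2. For 5 members, Dusp1, Dusp4, Dusp6, Dusp7 and Dusp16, every simulated microgravity library lay above every normal gravity library, a pattern shown by 14.4% of tested genes. With scaling by library size alone this held for 4, since Dusp16 then overlapped. Without normal gravity replicate 1, 3 of 10 members were higher (Dusp1, Dusp5 and Dusp6) and 1 was lower (Spred1), while 30.8% of all genes passed in that comparison, 15.7% higher and 15.1% lower. With a trend of each library on gene length removed as well, 2 members were higher and 1 was lower, beside 30.6% of all genes. A share of 4 in 10 is close to that background, and says nothing particular about these genes.

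**Figure D1:**
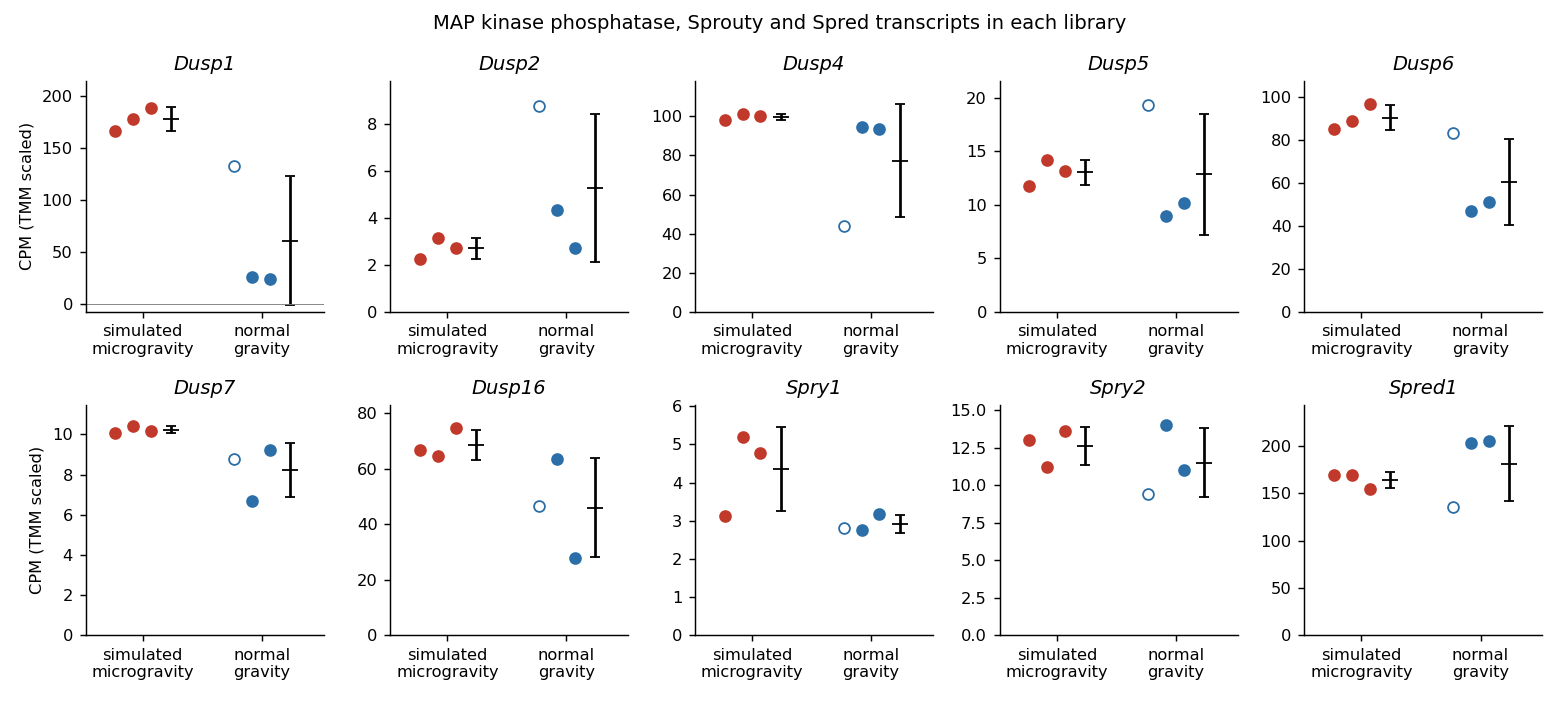
Level of each gene in CPM (TMM scaled), with simulated microgravity libraries in red and normal gravity libraries in blue; the open symbol is normal gravity replicate 1, and black bars give mean and SD (n = 3). Replicate 1 lies near the simulated microgravity libraries for Dusp1 and Dusp6, far above them for Dusp2 and far below them for Dusp4.

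Dusp1, Dusp2, Dusp4 and Dusp5 encode the nuclear, inducible phosphatases of the family. Dusp1, whose product favours p38 and JNK, lies on chromosome 17 from 26505590 to 26508519 in the deposited annotation. Its end there differs from that in GENCODE M21 (GRCm38). Dusp1 stood at 166, 178 and 189 CPM in simulated microgravity, against 132, 26.1 and 23.9 CPM at normal gravity. The groups did not overlap, but replicate 1 was itself 5.29 times the mean of the other normal gravity libraries. The means were 178 ± 11.2 CPM in simulated microgravity and 60.8 ± 62.0 CPM at normal gravity (SD, n = 3 each). This gave a log2 fold change of 1.55 (SE 0.68, edgeR adjusted p = 0.337). Without normal gravity replicate 1 it was 2.83 (SE 0.08, adjusted p = 3.7e-05), the 100th highest of 14809 genes, and the mean in simulated microgravity was 7.10 times that of the remaining normal gravity libraries. Dusp1 was thus the member with the largest difference in either comparison, and its call depends on leaving out that library. The macrophage marker sum and the sum of the immediate early transcripts were likewise lowest in normal gravity replicates 2 and 3. Replicate 1 had the highest immediate early sum, whereas its Dusp1 level was below every simulated microgravity library. The 13 immediate early transcripts, a list that does not include Dusp1, summed to 1196, 1226 and 1332 CPM in simulated microgravity and to 1574, 736 and 741 CPM at normal gravity. The part of either in the result was not tested.

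Dusp5 encodes a nuclear phosphatase that is selective for ERK. It stood at 11.8, 14.1 and 13.2 CPM in simulated microgravity, against 19.4, 8.96 and 10.2 CPM at normal gravity. The simulated microgravity libraries lay between replicate 1 and the other normal gravity libraries, and the groups overlapped. With all libraries the log2 fold change was 0.02 (SE 0.31, edgeR adjusted p = 0.986). Without normal gravity replicate 1 it was 0.45 (SE 0.12, adjusted p = 0.0374), and 0.39 with an adjusted p of 0.0561 once a trend of each library on gene length was also removed, so the call for Dusp5 does not survive that correction. Dusp2, the phosphatase gene named PAC1 in lymphocytes and macrophages, was scarce, with 77 to 95 counts per library in simulated microgravity and 88 to 280 at normal gravity. Its levels were 2.27, 3.14 and 2.71 CPM in simulated microgravity, against 8.78, 4.33 and 2.72 CPM at normal gravity. Normal gravity replicates 1 and 2 lay above every simulated microgravity library, replicate 1 at 2.49 times the mean of the other normal gravity libraries, and replicate 3 lay among them. Its log2 fold change was -0.96 (SE 0.44, edgeR adjusted p = 0.36) and -0.38 (adjusted p = 0.32) without that replicate.

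Dusp4 encodes a nuclear phosphatase of ERK and JNK. Its level was nearly the same in all 3 simulated microgravity libraries, at 98.1, 101 and 100.3 CPM, against 43.9, 94.6 and 93.4 CPM at normal gravity. The groups did not overlap, yet the gap to normal gravity replicates 2 and 3 was small. For Dusp4 the log2 fold change was 0.37 (SE 0.29, edgeR adjusted p = 0.611) with all libraries and 0.09 (SE 0.05, adjusted p = 0.201) without replicate 1. In replicate 1 Dusp4 was at 0.467 times the mean of the other normal gravity libraries, the opposite of Dusp1, Dusp2 and Dusp5. Dusp4 is 2740 bases long in the table, Dusp1 2313, Dusp5 2473 and Dusp2 1617. Dusp6, at 2796 bases, stood in replicate 1 at 1.70 times the mean of the other normal gravity libraries. The part of gene length in these levels was not tested beyond removal of its trend.

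Dusp6 and Dusp7 encode the cytoplasmic phosphatases that act on ERK. Dusp6, on chromosome 10 from 99263231 to 99267489 and often used as a readout of ERK activity, stood at 85.1, 88.8 and 96.6 CPM in simulated microgravity, against 83.2, 46.9 and 50.9 CPM at normal gravity. All 3 simulated microgravity libraries were above normal gravity replicates 2 and 3 by a wide margin and above replicate 1 by a narrow one. The means were 90.2 ± 5.84 CPM in simulated microgravity and 60.3 ± 19.9 CPM at normal gravity (SD, n = 3 each). This was a log2 fold change of 0.58 (SE 0.23, edgeR adjusted p = 0.299). Without replicate 1 the log2 fold change was 0.89 (SE 0.08, adjusted p = 0.000907). Dusp7 stood at 10.1, 10.4 and 10.2 CPM in simulated microgravity, against 8.78, 6.71 and 9.22 CPM at normal gravity. The groups did not overlap, and the gap between the lowest library in simulated microgravity and the highest at normal gravity was small. Its log2 fold change was 0.31 (SE 0.17, edgeR adjusted p = 0.438) with all libraries and 0.37 (SE 0.15, adjusted p = 0.123) without replicate 1, where its level was close to the others.

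Dusp16 encodes a phosphatase directed at JNK and p38. It stood at 66.6, 64.6 and 74.5 CPM in simulated microgravity, against 46.7, 63.5 and 27.8 CPM at normal gravity. Here the library farthest from the simulated microgravity level was replicate 3, not replicate 1, and replicate 2 lay just under the lowest simulated microgravity library. The log2 fold change of 0.58 (SE 0.29, edgeR adjusted p = 0.409) was 0.59 (SE 0.32, adjusted p = 0.218) without replicate 1, and did not pass in either comparison. The antisense gene Gm36328 overlaps Dusp16 and had 0 counts in all libraries.

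Of the Sprouty and Spred genes none passed with all libraries, and Spred1 passed without normal gravity replicate 1. Spry1, which encodes an inhibitor of receptor signalling to RAS, was the scarcest member per length. It had 90 to 157 counts per library and stood at 3.12, 5.19 and 4.77 CPM in simulated microgravity, against 2.82, 2.76 and 3.19 CPM at normal gravity. Of the simulated microgravity libraries 2 lay above and 1 lay within the range at normal gravity. The log2 fold change was 0.58 (SE 0.25, edgeR adjusted p = 0.328), and 0.55 (adjusted p = 0.155) without replicate 1. Spry2 stood at 13.0, 11.2 and 13.6 CPM in simulated microgravity, against 9.44, 14.0 and 11.0 CPM at normal gravity. The groups overlapped fully, with a log2 fold change of 0.13 (SE 0.19, edgeR adjusted p = 0.793) and 0.01 (SE 0.14, adjusted p = 0.952) without replicate 1.

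Spred1 encodes a membrane protein that brings the RAS inactivator neurofibromin to the plasma membrane. Its levels were 169, 169 and 154 CPM in simulated microgravity, against 135, 203 and 205 CPM at normal gravity. The simulated microgravity libraries lay between replicate 1 and the other normal gravity libraries. With all libraries the log2 fold change was -0.14 (SE 0.18, edgeR adjusted p = 0.767). Without replicate 1, Spred1 was lower in simulated microgravity, at -0.31 (SE 0.06, adjusted p = 0.00939), and at -0.23 (adjusted p = 0.0139) with the gene length trend removed as well. At 6016 bases Spred1 is the longest member, and its level in replicate 1 was 0.663 times that of the other normal gravity libraries. The part of gene length in its level there was not tested beyond that removal.

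**Figure D2:**
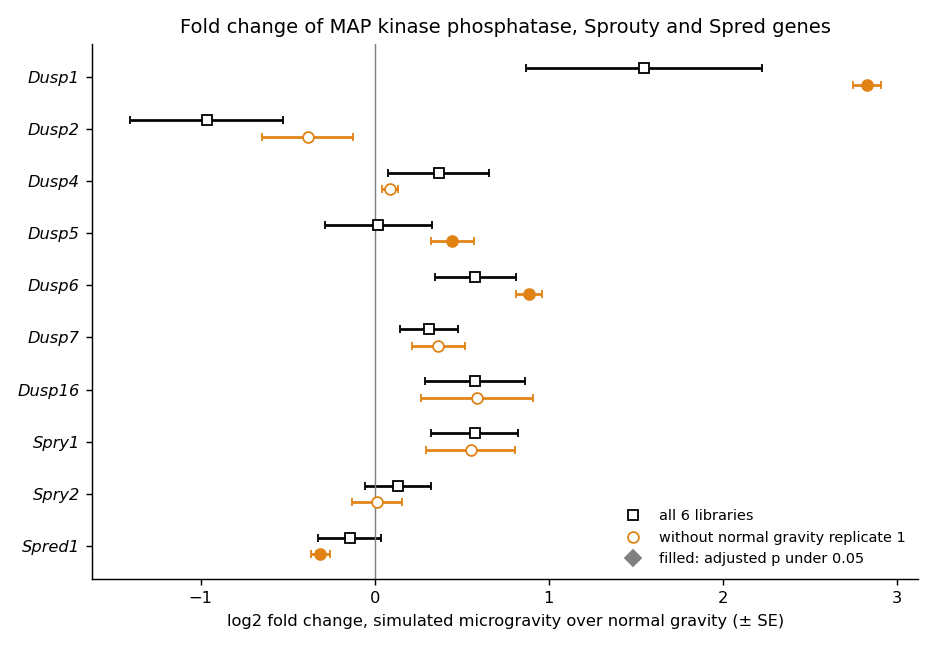
Log2 fold change (± SE) of each gene, simulated microgravity over normal gravity, from edgeR with all 6 libraries (squares) and without normal gravity replicate 1 (circles), filled where the adjusted p was under 0.05. No square is filled, and the filled circles are Dusp1 at 2.83, Dusp5 at 0.45, Dusp6 at 0.89 and Spred1 at -0.31.

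The make-up of the family differed between libraries. Per length (RPKM, here the TMM scaled CPM per 1000 bases of gene length), the 10 genes summed to 196, 205 and 211 in simulated microgravity, against 156, 125 and 117 at normal gravity. Dusp1 was the leading member in simulated microgravity at 76.8 ± 4.82 RPKM, followed by Dusp4 at 36.4 ± 0.58, Dusp6 at 32.2 ± 2.09, Spred1 at 27.3 ± 1.44 and Dusp16 at 13.4 ± 1.03 (SD, n = 3). None of these neighbours overlapped in their libraries. Below them, Spry2 (6.04 ± 0.61 RPKM) overlapped with Dusp5 (5.27 ± 0.48), Dusp7 followed at 3.19 ± 0.06, and Dusp2 (1.67 ± 0.27) overlapped with Spry1 (1.57 ± 0.39). At normal gravity the first 4 genes overlapped from neighbour to neighbour, namely Spred1 at 30.1 ± 6.60 RPKM, Dusp4 at 28.2 ± 10.6, Dusp1 at 26.3 ± 26.8 and Dusp6 at 21.6 ± 7.12. The 6 others ran from Dusp16 at 9.01 ± 3.49 to Spry1 at 1.05 ± 0.08 RPKM. As a share of the summed level per length, Dusp1 took 36.7%, 37.6% and 38.6% in simulated microgravity, against 36.7% in normal gravity replicate 1 and 9.04% and 8.82% in replicates 2 and 3. Dusp4 took 18.3%, 18.0% and 17.3% in simulated microgravity, against 10.3% in replicate 1 and 27.6% and 29.1% in replicates 2 and 3. Spred1 took 14.3%, 13.7% and 12.1% in simulated microgravity, against 14.4%, 27.0% and 29.1% at normal gravity. Across all tested genes the mean RPKM of Dusp1 was at the 89.8th percentile and that of Spry1 at the 20.5th.

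**Figure D3:**
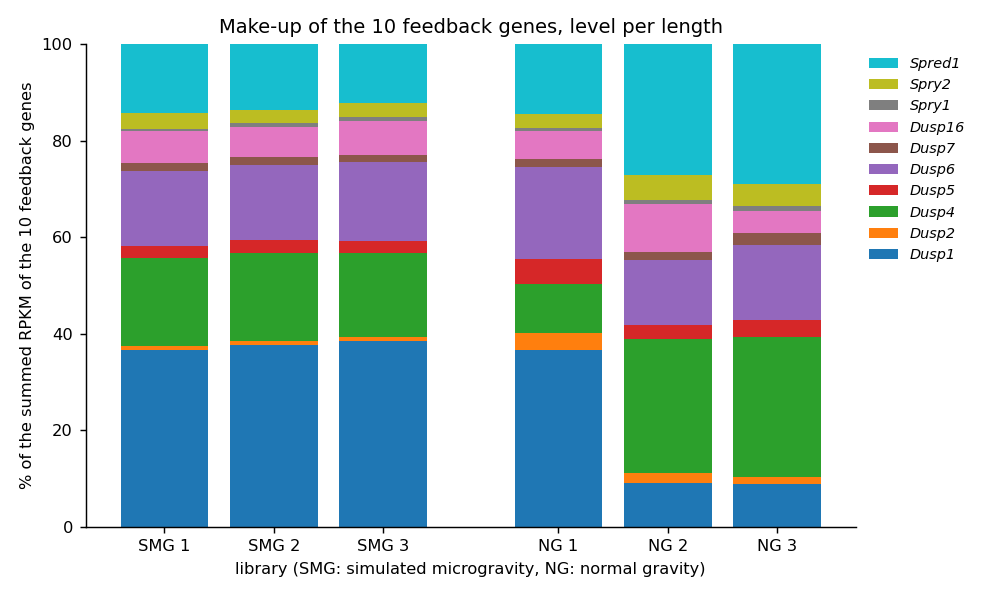
Share of each gene in the summed RPKM of the 10 genes, 1 bar per library, with simulated microgravity (SMG) on the left and normal gravity (NG) on the right. Dusp1 makes up 36.7% to 38.6% of each simulated microgravity bar and of the bar of normal gravity replicate 1, and 8.82% to 9.04% of the bars of replicates 2 and 3.

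Dusp6 was the member with the lowest p in edgeR with all 6 libraries. In DESeq2 and in edgeR without replicate 1 it was Dusp1, and with the gene length trend removed it was Spred1. The pattern of Dusp6 was compared with that of 10499 other genes with a mean of at least 5 CPM over the 6 libraries. The 5 genes most like it by Pearson correlation of log2 CPM were Tcim (r = 0.9986), Il1f9 (0.9981), Srgn (0.9978), Slfn2 (0.9966) and Cebpa (0.9964). Of the genes searched, 345 exceeded 0.95, over 6 libraries that share the division into groups and the deviation of replicate 1. None of the 5 passed the test with all libraries, and Il1f9, an interleukin of the IL-1 family, averaged 23.9 CPM in simulated microgravity and 8.94 CPM at normal gravity.

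Among the rest of the family, Dusp10 rose. It encodes a phosphatase directed at JNK and p38, like Dusp16, and stood at 30.1, 30.5 and 28.3 CPM in simulated microgravity, against 15.5, 17.9 and 17.0 CPM at normal gravity. Replicate 1 was not apart from the other normal gravity libraries for this gene. Its log2 fold change was 0.82 (SE 0.12, edgeR adjusted p = 0.0338), and 0.77 (adjusted p = 0.00161) without replicate 1. Leaving out any other single library ended the call of Dusp10 (adjusted p = 0.113 to 0.228). Of the 7 other MAP kinase phosphatase, Sprouty and Spred genes, 4 were tested, of which 1 rose and none fell in edgeR and limma-voom. DESeq2 and edgeR with the gene length trend removed each called 2 higher, Dusp10 and Dusp8. Dusp8, named after its values were seen, had a log2 fold change of 1.28 (edgeR adjusted p = 0.0585). Its adjusted p was 5.64e-05 in DESeq2 and 0.0218 in edgeR with the length trend removed, and without replicate 1 it passed edgeR at 1.12 (adjusted p = 0.00462). Spry4, an inducible Sprouty gene, was barely detected, with 0, 2 and 0 counts in simulated microgravity and 0, 2 and 9 counts at normal gravity. No count of Dusp9 was found, and the limit that this sets over the 6 libraries together is 0.0154 CPM (3 counts of the total, counting error only).

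Of 18 RAS and ERK cascade genes none rose or fell (median log2 fold change 0.06), and of 14 tested JNK and p38 cascade genes none did (0.08), in edgeR and in limma-voom. DESeq2 called 1 of the first list higher and, of the second, 1 higher and 2 lower, and edgeR with the gene length trend removed called 1 higher in each. Mapk3, which encodes ERK1, stood at 66.6, 70.5 and 77.3 CPM in simulated microgravity, against 119, 54.3 and 60.0 CPM at normal gravity. Replicate 1 was above all simulated microgravity libraries and the other normal gravity libraries were below them. The log2 fold change of Mapk3 was -0.12 (SE 0.31, edgeR adjusted p = 0.901) with all libraries and 0.32 (adjusted p = 0.0314) without replicate 1. With the gene length trend also removed it was 0.25 (edgeR adjusted p = 0.0574), so the call for Mapk3 does not survive that correction. Among RAS and ERK cascade genes 7 were higher and 3 lower in edgeR without replicate 1, beside a background of 30.8%. Among JNK and p38 cascade genes 2 were higher and 2 lower there. With the gene length trend also removed, 5 of the first list were higher and 1 lower, beside 30.6% of all genes. The second list again had 2 higher and 2 lower. Of 11 tested other inhibitors of RAS and receptor signalling edgeR and limma-voom called none when all libraries were used, and DESeq2 and edgeR with the length trend removed each called 1 higher. Without replicate 1, 12 of these inhibitors were tested and edgeR called 2 higher and 3 lower, beside 30.8% of all genes. With the length trend also removed it called 1 higher and 2 lower, beside 30.6%.

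Transcripts known to follow ERK activity did not move in a single direction. Of 10 tested ERK output transcripts 1 fell and none rose with all libraries in edgeR and limma-voom, while DESeq2 called 1 higher and 3 lower and edgeR with the length trend removed 2 higher and 3 lower. The gene called by edgeR was Etv4, an ETS transcription factor gene, which stood at 12.1, 12.4 and 12.7 CPM in simulated microgravity, against 31.2, 32.3 and 31.2 CPM at normal gravity. Its levels were nearly constant within each group, replicate 1 included, and the groups were far apart. It had a log2 fold change of -1.35 (SE 0.11, edgeR adjusted p = 0.0056), and -1.35 (adjusted p = 0.000226) without replicate 1. The adjusted p of Etv4 was 0.0503 to 0.0849 when any other single library was left out. Without replicate 1, 5 of the list were higher and 3 were lower, beside 15.7% of all genes higher and 15.1% lower. The higher ones were Egr1, Epha2, Fosl1, Ier3 and Myc, of which Egr1 and Ier3 are also on the immediate early list. Besides Etv4, the lower ones were its relative Etv5, with a log2 fold change of -0.72 (edgeR adjusted p = 0.00192), and Ccnd1, which encodes cyclin D1, with -1.53 (0.00022). Except for Egr1 and Etv4, these genes were named after their values were seen. Dusp6, another transcript that follows ERK, was higher in the same comparison, as given above. None of the 13 immediate early transcripts passed edgeR or limma-voom when all libraries were used, with a median log2 fold change of -0.02 in edgeR and 0.49 in limma-voom. DESeq2 called 1 higher and 1 lower, and edgeR with the length trend removed 3 higher and 1 lower. Without replicate 1, 11 were higher and 1 was lower in edgeR (median 0.78), against the same background of 15.7% and 15.1%.

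Fos and Egr1, immediate early genes that serum and ERK induce, differed from Dusp1 in where replicate 1 stood. Fos was at 55.8, 64.8 and 73.0 CPM in simulated microgravity, against 166, 20.4 and 22.5 CPM at normal gravity. Egr1 was at 11.8, 13.8 and 11.5 CPM in simulated microgravity, against 49.7, 9.59 and 8.69 CPM at normal gravity. For both genes replicate 1 was above all simulated microgravity libraries, whereas for Dusp1 it was below them. The log2 fold change of Fos was -0.11 (SE 0.81, edgeR adjusted p = 0.969) with all libraries and 1.59 (adjusted p = 0.000698) without replicate 1, and that of Egr1 was -0.87 (adjusted p = 0.61) and 0.44 (adjusted p = 0.0432).

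Of 14 growth factor receptor genes, from which these cascades start, 7 were tested and 1 rose in edgeR and limma-voom, while DESeq2 and edgeR with the length trend removed each called 1 higher and 1 lower (Igf1r, named after its values were seen). The gene that rose was Pdgfrb, a receptor of platelet-derived growth factor, at 5.71, 6.14 and 5.54 CPM in simulated microgravity, against 2.32, 1.84 and 2.63 CPM at normal gravity (log2 fold change 1.36, SE 0.21, edgeR adjusted p = 0.0396). The call of Pdgfrb did not hold when a library other than normal gravity replicate 1 was left out (adjusted p = 0.112 to 0.23). Pdgfrb is also 1 of the 8 fibroblast and stellate markers, which summed to 69.6 to 74.8 CPM in simulated microgravity and 42.5 to 61.0 CPM at normal gravity, with Lum at 0 counts in all libraries and 5 of the 8 under 1 CPM in all of them. The 6 endothelial markers summed to 45.8 to 59.7 CPM in simulated microgravity and 18.9 to 20.0 CPM at normal gravity. Tek had 0 counts, and 4 of the 6 were under 1 CPM in all libraries. Of the 4 tested, 2 had a log2 fold change above 0 and 2 below, and edgeR called 1 (Vwf) higher. The part of other cells in the result for Pdgfrb was not tested. No count of Egfr, Fgfr2, Fgfr3 or Fgfr4 was found in any library.

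**Figure D4:**
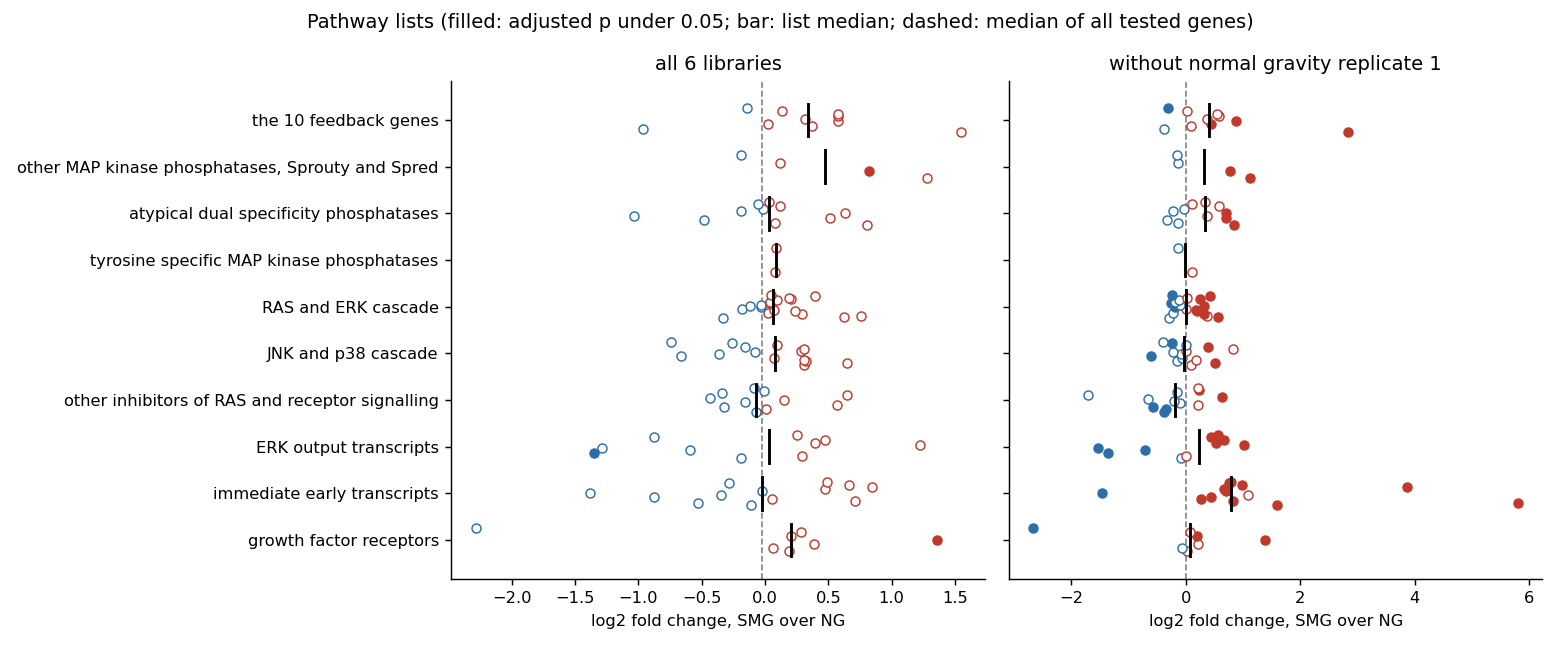
Log2 fold change (simulated microgravity, SMG, over normal gravity, NG) of the tested genes of each list, red above 0 and blue below 0, filled where the adjusted p was under 0.05, with all 6 libraries on the left and without normal gravity replicate 1 on the right, on a wider axis; black bars are list medians and the dashed line is the median of all tested genes. On the left the filled genes are Dusp10, Etv4 and Pdgfrb, and on the right 11 of 13 immediate early transcripts are filled above 0.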

How the data were processed

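RNA sequencing was carried out on 3 libraries of NCTC 1469 cells from a random positioning machine and 3 from normal gravity. Per the labels' protocols, RNA was taken up in Trizol and 1 µg went into an mRNA library kit. Per the submitters' processing notes, reads went through fastp 2.0 and HISAT2 2.1.0. Which counter, strand setting, build and annotation were used: not given in the sources used here. Raw counts are what the authors deposited, as whole numbers for each gene and library. Coordinates of 9 of the 10 genes equal GENCODE M21 (GRCm38). The end of Dusp1 differs there.

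From these counts, tests were run with edgeR 4.0.16 under R 4.3.3 (filterByExpr, TMM, quasi-likelihood test, two-sided, Benjamini-Hochberg adjustment over all tested genes, threshold 0.05). Each SE was derived from the fold change and its F statistic. RPKM uses the gene length of the table. Where 2 entries share a symbol (Map2k7, Itgam), the first was used. DESeq2 1.42.0, limma 3.58.1 (voom), other scaling, no filter, a replicate block, removal of a trend on gene length (lowess span 0.3) and leaving out each library were alternatives. The procedures were tested on simulated data. The genes named are all members, Spry4, Mapk3, Egr1 and Fos, and up to 3 called genes of each pathway list. Under the same rule the 5 genes most like the member with the lowest p in edgeR with all 6 libraries are named. A further gene of this rule is not reported here. Dusp3, Dusp8, Dusp9, Dusp12, Dusp14, Dusp18, Etv5, Ccnd1, Epha2, Fosl1, Ier3, Myc, Igf1r, Egfr and Fgfr2 to Fgfr4 fall outside the rule and were named after their values were seen, and marker genes serve as markers. Members and lists were chosen with earlier results of these data known. Counting precision is limited by the counts given, without molecular identifiers.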

Additional observations from a re-analysis of the deposited data

How the results depend on the processing

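Leaving out normal gravity replicate 1 decided the calls among the 10 genes: 4 were called in edgeR, DESeq2 and limma-voom and 3 with the gene length trend also removed, against 0 in every comparison that kept it (range 0 to 4 over the libraries left out). The last 3 of these comparisons were chosen after seeing the data. The number of called genes over the whole table was 221. It was 125 without a filter on low counts, 1230 in DESeq2, 696 with the gene length trend removed and 3 to 4559 with a library left out, and, without normal gravity replicate 1, 5159 in DESeq2, 4632 in limma-voom and 4529 with the trend removed. The share of higher calls was 76% in edgeR, 58% in DESeq2, 63.1% with the length trend removed and 51.1% without that replicate. Of the 106 pathway genes 3 passed. The number was 1 without a filter, 16 in DESeq2, 15 with the length trend removed and 0 to 45 with a library left out, and, without replicate 1, 50 in DESeq2, 44 in limma-voom and 40 with the trend removed. With the replicate block 0 genes, 0 members and 0 pathway genes passed. The labels do not tie the numbers to a shared batch. Deviations of same-numbered libraries from their group means correlated at -0.07, 0.02 and -0.09, and those of differently numbered ones at -0.06 to 0.09. Normal gravity replicate 1 stands apart in these deviations, so this check cannot decide whether the numbers pair the samples.

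Some directions turned. Dusp5 was at -0.0069 with library size alone, and at -0.18, -0.12 and -0.037 without normal gravity replicates 2 and 3 and simulated microgravity replicate 2, in a range up to 0.45 over the libraries left out. Spry2 was at -0.049 without normal gravity replicate 1 and the length trend. Fos was at 0.60 in limma-voom, 0.69 with the replicate block and 0.064 with the length trend removed. Without normal gravity replicate 1 in edgeR, then with the trend removed, in DESeq2 and in limma-voom, Fos was at 1.59, 1.53, 1.59 and 1.58, Egr1 at 0.44, 0.46, 0.43 and 0.43, and Mapk3 at 0.32, 0.25, 0.32 and 0.32. Their lowest values with a library left out were -0.55 for Fos, -1.26 for Egr1 and -0.32 for Mapk3. The calls of Dusp10, Etv4 and Pdgfrb were lost when any library other than normal gravity replicate 1 was left out (adjusted p 0.0503 to 0.23) and with the replicate block. Those of Dusp10 and Pdgfrb were also lost without a filter, while their directions held throughout. The cause of these shifts was not tested.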

Other observations

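Of 14 atypical Dusp genes, small phosphatases that lack the kinase-binding domain, 11 were tested and edgeR and limma-voom called none when all libraries were used, while DESeq2 called 1 higher. Without normal gravity replicate 1, Dusp3, Dusp14 and Dusp18 were higher and none was lower, beside 15.7% of all genes higher and 15.1% lower. With the gene length trend also removed the same 3 were higher and 1 (Dusp12) was lower, beside 30.6% of all genes called in either direction. Dusp3, named after its values were seen, stood at 213, 348 and 221 CPM in simulated microgravity, against 157, 150.3 and 140.1 CPM at normal gravity (log2 fold change 0.81, edgeR adjusted p = 0.131, and 0.85 with an adjusted p of 0.0336 without replicate 1). Of the tyrosine specific MAP kinase phosphatases Ptpn5, Ptpn7 and Ptprr, 2 were tested and neither passed in edgeR, DESeq2 or limma-voom, nor in edgeR without that library.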
